A study of Mus musculus with 4 samples.

Results

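The genes described here are 6 ligand genes of the epidermal growth factor (EGF) family (Areg, Ereg, Hbegf, Tgfa, Btc and Epgn), 3 receptor genes of the ERBB family (Egfr, Erbb2 and Erbb3) and Errfi1, which encodes an intracellular inhibitor of the EGF receptor. They were taken by name, and all 10 were found among the 22594 genes of the deposited transcript table. Steady-state RNA had been profiled in 2 mouse endometrial cancer cell lines run in duplicate, with 2 libraries of MSH2KO21B and 2 of MECPK. The labels give uterine cancer as the source of both and no treatment, genotype, culture history or strain, so the line names are used only as names. They do not say whether the duplicates were separate cultures, and p-values therefore measure only the spread between these libraries, which may be technical.

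Ligands of the EGF family are made as membrane-anchored precursors, and metalloproteinases on the cell surface cut them free. A released ligand binds EGFR, which pairs with itself or with another ERBB receptor and signals through RAS-MAPK and PI3K. ERBB2 has no known ligand of its own and acts as the partner in pairs, whereas ERBB3 binds neuregulins and has little kinase activity. In epithelia such as the endometrium and the skin the pathway drives growth and repair, and several of its ligands and inhibitors are themselves induced by it.

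The ligands share a short module with 6 cysteines, the EGF-like domain, which contacts the receptor. The coding sequence of this module is shown for the 5 ligand genes on chromosomes 5 and 6, because the results turn on which member of this family of look-alike ligands each line transcribed. Each was found in the GENCODE M21 transcript (GRCm38) by the spacing of its cysteines and is given 5′ to 3′ on the coding strand, with the cysteine codons in capitals.
Epgn: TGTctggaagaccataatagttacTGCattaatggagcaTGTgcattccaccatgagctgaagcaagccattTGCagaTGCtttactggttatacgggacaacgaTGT
Areg: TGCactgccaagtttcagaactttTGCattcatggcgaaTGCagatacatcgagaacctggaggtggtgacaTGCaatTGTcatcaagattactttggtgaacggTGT
Ereg: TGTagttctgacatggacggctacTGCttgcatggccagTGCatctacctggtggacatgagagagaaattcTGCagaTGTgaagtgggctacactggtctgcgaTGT
Btc: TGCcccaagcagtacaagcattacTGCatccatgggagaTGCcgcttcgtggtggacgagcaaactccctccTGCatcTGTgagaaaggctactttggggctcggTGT
Tgfa: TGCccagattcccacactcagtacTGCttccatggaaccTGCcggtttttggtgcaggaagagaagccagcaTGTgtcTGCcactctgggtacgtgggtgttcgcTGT
In all 6 ligands, Hbegf included, the module spanned 36 residues, with 7, 4, 10, 1 and 8 residues between successive cysteines. The search itself required the spacings of 7, 1 and 8 and held the others to narrow ranges, so the shared spacing is not a result. Over the 15 pairs of ligands, the identity of the encoded residues ran from 33.3% (Epgn with Areg, and Areg with Ereg) to 55.6% (Btc with Hbegf). Ligands this far apart in sequence are not near-identical copies.

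Values are TPM, a relative abundance that is already divided by transcript length and scaled to 1000000 in each library, so levels of different genes can be set side by side within a library. The unit carries no depth, which is unknown here, and no detection limit was computed. Between 11442 and 11478 genes reached 1 TPM in MSH2KO21B and between 10775 and 10822 in MECPK. The 7 epithelial markers summed to 7550 and 7450 TPM in MSH2KO21B and 3990 and 4040 TPM in MECPK, but the lines carried different keratins. Krt5, a keratin of basal and stratified epithelium, was at 3888 and 3810 TPM in MSH2KO21B, against 1.10 and 0.680 TPM in MECPK, and its partner Krt14 was at 3321 and 3316 TPM in MSH2KO21B, against 1.86 and 1.88 TPM in MECPK. Krt8, a keratin of simple epithelium, was at 45.9 and 43.5 TPM in MSH2KO21B, against 1502 and 1531 TPM in MECPK, and its partner Krt18 was at 4.17 and 2.84 TPM in MSH2KO21B, against 1284 and 1288 TPM in MECPK. Krt19 and Epcam were also lower in MSH2KO21B, and Cdh1, which encodes E-cadherin, was higher. The lines did not overlap in any of the 7 markers, and their part in the differences of the ligand and receptor genes was not tested. The 7 endometrial epithelial markers summed to 16.3 and 15.4 TPM in MSH2KO21B and 59.6 and 55.4 TPM in MECPK. Of these, 3 (Pgr, Hoxa10 and Hoxa11) were listed at 0 in all 4 libraries. The others did not all go with the sum: Pax8, Foxa2 and Emx2 were lower in MSH2KO21B, but Esr1 was higher. Esr1 was at 2.999 and 2.528 TPM in MSH2KO21B, against 1.322 and 1.403 TPM in MECPK. None of 7 fibroblast markers reached 1 TPM in any library. Of 7 immune markers, 6 stayed under 1 TPM in every library, with Cd68 the exception, and the list summed to 2.55 and 2.53 TPM in MSH2KO21B and 3.72 and 2.87 TPM in MECPK. The 6 endothelial markers summed to 2.84 and 1.84 TPM in MSH2KO21B and 0.0946 and 0.0339 TPM in MECPK. Only Pecam1 and Cdh5 among them reached 1 TPM in any library, and Kdr and Emcn were listed at 0 in all 4. In bulk RNA, fewer cells of a type and less RNA per cell cannot be told apart.

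The lines differed in which EGF receptor ligand they transcribed most. MSH2KO21B carried mainly Epgn, which was barely present in MECPK, while the other 5 ligands were all lower in MSH2KO21B than in MECPK. Egfr was higher in MSH2KO21B, Erbb3 was lower, and Errfi1 was lower. All 10 genes passed the filter of 1 TPM in at least 2 libraries, Epgn only through MSH2KO21B and Btc only through MECPK. By limma on log2(TPM + 1), with Benjamini-Hochberg adjustment over all 11921 genes tested, 3 of the 10 were called higher and 7 lower at the threshold of 0.05. The lines differed widely: 76.2% of all genes passed the same test, 46.6% with a higher and 29.7% with a lower value in MSH2KO21B, so a call by itself does not set these genes apart. The 2 lines did not overlap in any of the 10 genes, and the same held for 88.9% of all genes tested. A log2 difference over 1 in size was called for 7 of the 10 genes, against 30.3% of all genes tested. This share is not read as support, since the genes were chosen with earlier results of these data known. Epgn and Btc, among the 7, also passed the filter only through the line in which they were high. The median log2 difference over all genes was 0.19, and quantile normalization and median-ratio scaling moved it to -0.03 and -0.01.

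**Figure D1:**
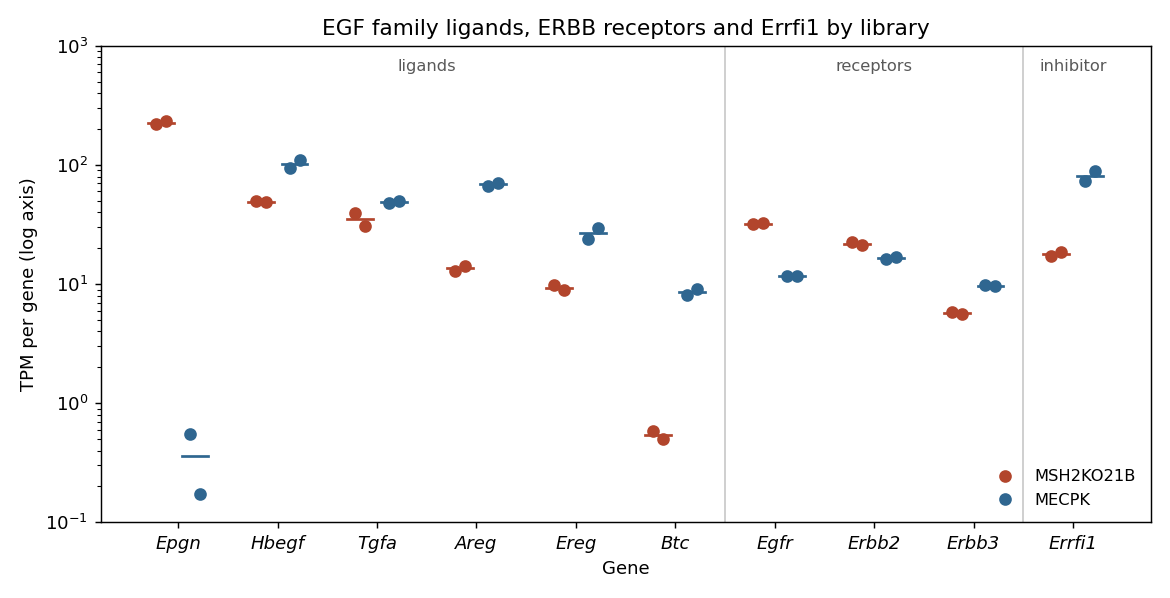
TPM per gene (log axis) in each library for the 6 ligand genes, the 3 receptor genes and Errfi1. Points are libraries (2 of MSH2KO21B in red, 2 of MECPK in blue) and bars are line means; Epgn stands at 222 and 232 TPM in MSH2KO21B and under 1 TPM in MECPK, and the other 5 ligands are lower in MSH2KO21B.

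Among the ligands, Epgn encodes epigen, a ligand of EGFR first known from keratinocytes. Epgn (ENSMUSG00000035020.11, GRCm38 chromosome 5, 91027464 to 91035215, plus strand) was at 222 and 232 TPM in MSH2KO21B, against 0.552 and 0.173 TPM in MECPK. It was the most abundant of the 10 genes in MSH2KO21B and the least abundant in MECPK. The log2 difference was 7.40 (SE 0.15, limma adjusted p = 1.08e-05), the 37th largest positive value among 11921 genes. Since Epgn passed the filter only through MSH2KO21B, in which it was high, neither the p-value nor the rank is read as support. With a pseudocount of 0.1 in place of 1 the log2 difference was 9.07, since the larger pseudocount compresses the low MECPK values. The longer transcript, Epgn-201, held all of the Epgn signal in both MSH2KO21B libraries. In MECPK the small signal lay on Epgn-201 in replicate 1 (0.546 TPM) and on Epgn-202 in replicate 2 (0.173 TPM), so the transcript was not stable between the MECPK replicates.

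Areg encodes amphiregulin, a ligand of EGFR that is also an output of RAS-MAPK signalling. Areg (ENSMUSG00000029378.5, chromosome 5, 91139599 to 91148432, plus strand) was at 12.9 and 14.1 TPM in MSH2KO21B, against 67.0 and 70.6 TPM in MECPK. The MECPK libraries were 5.08 times as high on average, and both lay far above both MSH2KO21B libraries (log2 difference -2.26, SE 0.07, limma adjusted p = 2.9e-05). Ereg encodes epiregulin, which binds EGFR and ERBB4. Ereg (ENSMUSG00000029377.5, chromosome 5, 91074622 to 91093646, plus strand) was at 9.78 and 8.85 TPM in MSH2KO21B, against 23.9 and 29.6 TPM in MECPK. Its 2 MECPK libraries differed more from each other than its 2 MSH2KO21B libraries, and the lines still did not overlap (log2 difference -1.42, SE 0.12, adjusted p = 0.000549).

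Btc encodes betacellulin, which also binds EGFR and ERBB4. Btc (ENSMUSG00000082361.6, chromosome 5, 91357261 to 91402994, minus strand) was at 0.586 and 0.501 TPM in MSH2KO21B, against 8.12 and 9.05 TPM in MECPK. It was the least abundant of the 6 ligand genes in MSH2KO21B, and among these 6 its log2 difference was the most negative (-2.63, SE 0.09, limma adjusted p = 4.04e-05). Btc passed the filter only through MECPK, in which it was high, so the p-value is not read as support. With a pseudocount of 0.1 the log2 difference was -3.76. All of the Btc signal lay on the coding transcript Btc-201, and Btc-202, annotated for nonsense-mediated decay, was listed at 0 in all 4 libraries.

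Hbegf encodes heparin-binding EGF-like growth factor, a ligand of EGFR and ERBB4. Hbegf (ENSMUSG00000024486.6, chromosome 18, 36504927 to 36515805, minus strand) was at 49.7 and 49.0 TPM in MSH2KO21B, against 95.02 and 111 TPM in MECPK. It was the most abundant of the 10 genes in MECPK and came after Epgn in MSH2KO21B (log2 difference -1.04, SE 0.09, limma adjusted p = 0.000453). Tgfa encodes transforming growth factor alpha, a ligand of EGFR. Tgfa (ENSMUSG00000029999.14, chromosome 6, 86195223 to 86275719, plus strand) was at 39.5 and 30.7 TPM in MSH2KO21B, against 48.4 and 50.2 TPM in MECPK. The log2 difference was -0.49 (SE 0.13, adjusted p = 0.0223), and the call was lost without MECPK replicate 1 (-0.51, adjusted p = 0.101) or MECPK replicate 2 (-0.46, adjusted p = 0.124). Without MSH2KO21B replicate 2 the log2 difference was -0.31, and over 13 alternatives the adjusted p of Tgfa ran from 0.000431 to 0.124.

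The Tgfa value joined transcripts that behaved differently. The full-length Tgfa-201, of 4527 bases, was at 16.3 and 14.1 TPM in MSH2KO21B, against 27.9 and 28.5 TPM in MECPK. Tgfa-202, a fragment of 410 bases annotated as incomplete at its end, was at 23.2 and 16.6 TPM in MSH2KO21B, against 20.4 and 21.7 TPM in MECPK. The fragment thus overlapped between the lines and the full-length transcript did not. When transcripts annotated as incomplete were left out, an alternative chosen after seeing the data, the log2 difference of Tgfa was -0.85 (adjusted p = 0.000431).

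**Figure D2:**
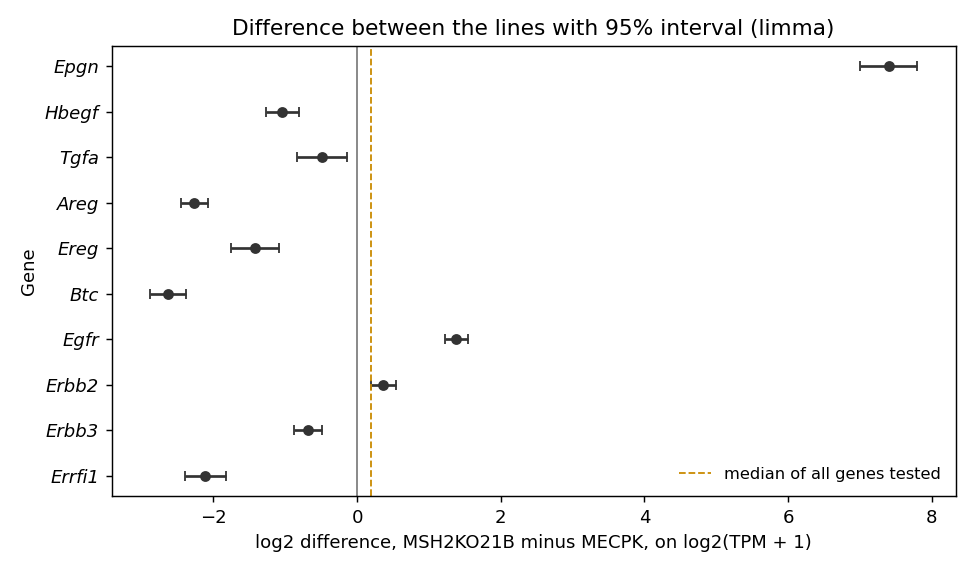
Log2 difference between the lines, MSH2KO21B minus MECPK, for each gene (points), with 95% intervals from limma and the median of all genes tested (dashed line, 0.19). Epgn stands at 7.40, Egfr at 1.38 and Erbb2 at 0.37, and the other genes lie between -2.63 (Btc) and -0.49 (Tgfa).

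The makeup of the EGFR ligand pool was compared within each library by adding the TPM of the 6 ligands and of Egf, the founding member of the family. Egf itself was at 0.393 and 0.476 TPM in MSH2KO21B and 0.148 and 0.0743 TPM in MECPK and was not tested. The pool summed to 335 and 336 TPM in MSH2KO21B, against 243 and 270 TPM in MECPK. Epgn made up 66.2% and 69.1% of it in MSH2KO21B, against 0.227% and 0.0641% in MECPK. Without Epgn the pool was 113 and 104 TPM in MSH2KO21B, against 243 and 270 TPM in MECPK, so the order of the lines by summed ligand level turned on this gene. These sums are given as a description, with no test.

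The rest of the pool was not scaled down evenly. Among the ligands other than Epgn, Hbegf held 44.0% and 47.3% of the TPM in MSH2KO21B and 39.2% and 41.0% in MECPK. Tgfa held 35.0% and 29.6% in MSH2KO21B, against 19.9% and 18.6% in MECPK, with the incomplete fragment Tgfa-202 counted in. Areg held 11.4% and 13.6% in MSH2KO21B, against 27.6% and 26.1% in MECPK. Within each library Hbegf was 3.85 and 3.46 times as abundant as Areg in MSH2KO21B, and 1.42 and 1.57 times in MECPK.

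**Figure D3:**
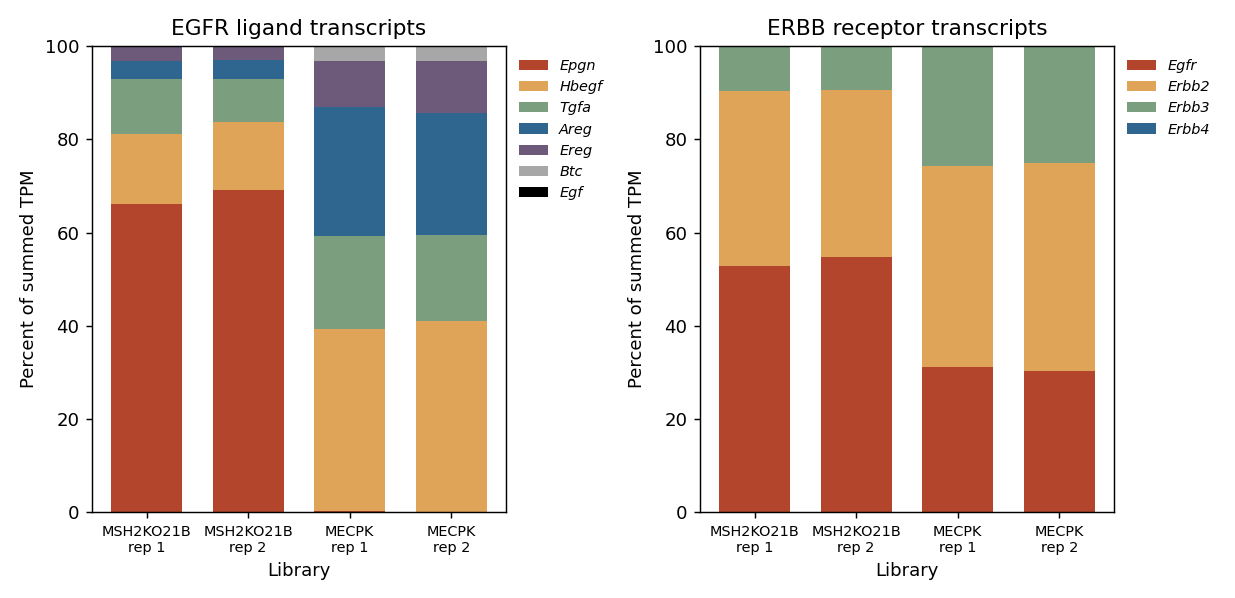
Share of each gene in the summed TPM of the EGFR ligand genes (left) and of the ERBB receptor genes (right), one bar per library, with MSH2KO21B left of MECPK. Epgn fills 66.2% and 69.1% of the ligand bars of MSH2KO21B and Egfr 52.9% and 54.8% of its receptor bars; Erbb4 is listed at 0 and Egf stays under 1% throughout.

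Of the receptors, Egfr (ENSMUSG00000020122.16, chromosome 11, 16752203 to 16918158, plus strand) was at 31.7 and 32.5 TPM in MSH2KO21B, against 11.7 and 11.6 TPM in MECPK. Replicates agreed within 1 TPM in both lines, and the MSH2KO21B mean was 2.75 times that of MECPK (log2 difference 1.38, SE 0.06, limma adjusted p = 6.83e-05). The gene has a full-length transcript, Egfr-201, with 1210 codons, and a shorter one, Egfr-202, with 655 codons, which in the mouse encodes a receptor without the kinase domain. Egfr-202 held 14.04% and 14.4% of Egfr TPM in MSH2KO21B, against 14.6% and 13.1% in MECPK. Both transcripts were higher in MSH2KO21B, and the shares of the 2 lines overlapped.

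Erbb2 (ENSMUSG00000062312.5, chromosome 11, 98412470 to 98437716, plus strand) was at 22.4 and 21.2 TPM in MSH2KO21B, against 16.3 and 17.02 TPM in MECPK. The log2 difference was 0.37 (SE 0.07, 95% interval 0.19 to 0.55, limma adjusted p = 0.00635), little more than the median of all genes. The call was lost after quantile normalization (0.16, adjusted p = 0.0748), after median-ratio scaling (0.16, adjusted p = 0.0769) and without MSH2KO21B replicate 1 (0.33, adjusted p = 0.0672), and over 13 alternatives the adjusted p ran from 0.00366 to 0.0769. Erbb3 (ENSMUSG00000018166.8, chromosome 10, 128567523 to 128589652, minus strand) was at 5.78 and 5.58 TPM in MSH2KO21B, against 9.74 and 9.66 TPM in MECPK. It was the least abundant of the 3 receptors in both lines and fell by 0.68 on the log2 scale (SE 0.07, adjusted p = 0.00103), or by 1.02 after quantile normalization.

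The order of the receptors differed between the lines. In MSH2KO21B, Egfr was above Erbb2, at 1.41 and 1.53 times its level, whereas in MECPK it was below, at 0.719 and 0.682 times. Erbb2 was 3.88 and 3.80 times as abundant as Erbb3 in MSH2KO21B, against 1.68 and 1.76 times in MECPK. Egfr held 52.9% and 54.8% of the receptor TPM in MSH2KO21B, against 31.1% and 30.3% in MECPK. Erbb4, the remaining receptor of the family, was listed at 0 in all 4 libraries.

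Errfi1 encodes MIG6, which binds the kinase domain of EGFR and holds it inactive, and is induced by the receptor's own signal. Errfi1 (ENSMUSG00000028967.10, chromosome 4, 150853919 to 150868892, plus strand) was at 17.3 and 18.5 TPM in MSH2KO21B, against 73.2 and 88.8 TPM in MECPK. It was the most abundant gene after Hbegf in MECPK and stood between Erbb2 and Areg in MSH2KO21B (log2 difference -2.11, SE 0.11, limma adjusted p = 0.000112). Its 2 transcripts in the table had equal estimates in every library, so the starts could not be told apart.

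The 10 genes could also be ordered by level within each line. In MSH2KO21B the order by mean TPM was Epgn, Hbegf, Tgfa, Egfr, Erbb2, Errfi1, Areg, Ereg, Erbb3 and Btc, and of the neighbours in it Tgfa and Egfr overlapped between replicates. In MECPK it was Hbegf, Errfi1, Areg, Tgfa, Ereg, Erbb2, Egfr, Erbb3, Btc and Epgn, with no overlap between neighbours. Both orders use the summed Tgfa value, which includes the incomplete fragment Tgfa-202. The full-length Tgfa-201 alone (27.9 and 28.5 TPM) overlapped Ereg (23.9 and 29.6 TPM) in MECPK. In MSH2KO21B, Tgfa-201 alone (16.3 and 14.1 TPM) stood below Errfi1 (17.3 and 18.5 TPM).

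Of the 6 ligand genes, 4 lie side by side on chromosome 5, and 1 of these 4 went against the rest. From the start of Areg, the start of Ereg lies 65.0 kb and that of Epgn 112.1 kb to one side, and that of Btc 263.4 kb to the other. Epgn was higher in MSH2KO21B, and Ereg, Areg and Btc were lower. Within 600 kb of the Areg start, a window chosen after the values were seen, 15 gene starts were in the table and 10 genes were tested. Of these, 2 were called higher (Epgn and the chemokine gene Cxcl3) and 8 lower, against 46.6% and 29.7% of all genes tested. Of the 10, 5 passed the filter only through the line in which they were high. The count also takes in the 4 ligand genes themselves, chosen with their directions known, so it is not read as support. Mthfd2l, which encodes a mitochondrial folate enzyme and is the neighbour of Epgn on the side away from Ereg, was at 31.4 and 30.2 TPM in MSH2KO21B, against 92.9 and 83.1 TPM in MECPK (log2 difference -1.48, limma adjusted p = 9.85e-05). Both genes next to Epgn were therefore lower in MSH2KO21B while Epgn was higher.

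**Figure D4:**
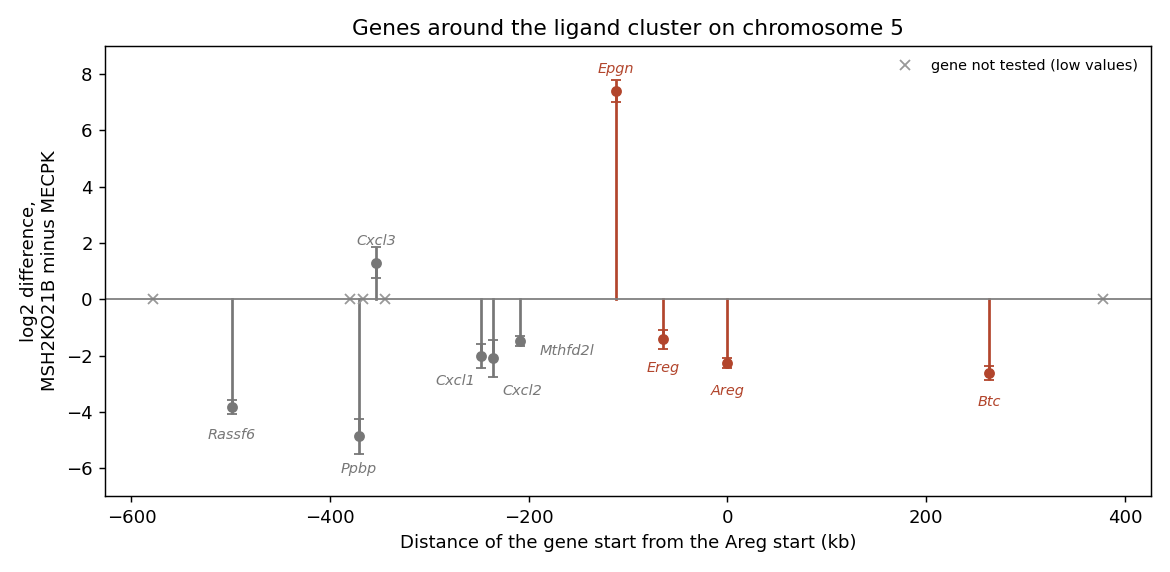
Log2 difference, MSH2KO21B minus MECPK (y axis), of the genes around the ligand cluster against the distance of their start from the Areg start in kb (x axis), with 95% intervals from limma. Ligand genes are red, other tested genes grey, and crosses mark genes not tested; Epgn at 7.40 stands between Mthfd2l at -1.48 and Ereg at -1.42.

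Promoter windows are described for their sequence alone, since the genes were chosen with the direction of their differences known. RefSeq windows (GRCm38.p6) were at hand for 7 of the 10 genes, with 8 starts in all. In the 250 bases before each start, both strands were searched for TGACGTCA, the site bound by CREB and ATF factors, for TGANTCA, the AP-1 site, and for TATAAA, the core of the TATA box. TGACGTCA and TATAAA do not overlap each other as letters. Of all 32851 such windows, 1.55% held TGACGTCA, 6.75% TGANTCA and 12.4% TATAAA. Among the 8 starts of these genes, TGACGTCA was present at Areg and at the second of the Errfi1 starts, and TATAAA at these and at Epgn. TGANTCA was at none of them. The windows of Btc, Tgfa, Egfr and Erbb2 and the first Errfi1 start held none of the 3 motifs. A match describes the letters and not a bound site.

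The 3 windows with a match are shown, as the ones that hold a motif, in the plus direction, which is the direction of transcription, up to the base before the annotated start, with TGACGTCA and TATAAA in capitals.
Areg, chr5:91139349-91139598: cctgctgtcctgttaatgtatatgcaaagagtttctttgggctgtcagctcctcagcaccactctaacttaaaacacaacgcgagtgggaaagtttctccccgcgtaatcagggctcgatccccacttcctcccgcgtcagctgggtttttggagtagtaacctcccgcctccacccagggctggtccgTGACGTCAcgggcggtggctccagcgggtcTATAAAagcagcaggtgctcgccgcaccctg
Errfi1, chr4:150854820-150855069: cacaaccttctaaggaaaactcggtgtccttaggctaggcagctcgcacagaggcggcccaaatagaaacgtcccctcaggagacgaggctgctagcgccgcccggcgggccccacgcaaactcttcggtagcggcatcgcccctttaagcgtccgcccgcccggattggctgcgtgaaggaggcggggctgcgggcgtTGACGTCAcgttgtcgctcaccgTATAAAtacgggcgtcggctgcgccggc
Epgn, chr5:91027267-91027463: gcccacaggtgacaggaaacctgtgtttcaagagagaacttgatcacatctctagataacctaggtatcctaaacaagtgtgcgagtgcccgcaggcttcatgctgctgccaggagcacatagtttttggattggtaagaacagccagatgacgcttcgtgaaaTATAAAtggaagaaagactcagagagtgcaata
The first base of TATAAA lay 31 bases before the RefSeq start of Areg, 28 before that of Errfi1 and 86 before that of Epgn. The GENCODE start of Epgn is nearer, 33 bases after the first base of TATAAA. TGACGTCA began 61 bases before the start of Areg and 51 before that of Errfi1. No link with the differences is read from these motifs, and none was tested.

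Other genes of the pathway were described from 5 lists of 72 genes. In the list of other ERBB ligands and Erbb4, 2 of 6 genes were tested and both were called higher in MSH2KO21B, against 46.6% of all genes tested. Nrg1, which encodes neuregulin 1, a ligand of ERBB3 and ERBB4, was at 69.9 and 70.4 TPM in MSH2KO21B, against 17.1 and 20.2 TPM in MECPK (log2 difference 1.86, SE 0.09, limma adjusted p = 9.82e-05). Nrg2, which encodes another neuregulin, was at 10.7 and 9.21 TPM in MSH2KO21B, against 2.03 and 2.20 TPM in MECPK (log2 difference 1.81, SE 0.10, adjusted p = 0.000149). Nrg1 and Nrg2 were thus higher in the line in which Erbb3 was lower. Nrg4 was listed at 0 throughout, and Nrg3 had 0.0127 TPM in 1 MECPK library and 0 in the others.

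Of 11 genes for ligand release and trafficking 10 were tested, and 5 were higher and 5 lower, against 46.6% and 29.7% of all genes tested (median log2 difference -0.05). Of these, Timp3 passed the filter only through MSH2KO21B and Adam12 only through MECPK. Timp3, an inhibitor of metalloproteinases including ADAM17, was at 832 and 841 TPM in MSH2KO21B, against 0.402 and 0.188 TPM in MECPK (log2 difference 9.34). The metalloproteinase genes split: Adam12 (-3.66) and Adam9 (-2.18) were lower and Adam15 (1.84) was higher. Adam10 and Adam17, which cut most of these ligands free and are named after their values were seen, were higher. Adam10 was at 43.9 and 48.2 TPM in MSH2KO21B, against 27.0 and 29.0 TPM in MECPK (log2 difference 0.70). Adam17 was at 36.1 and 32.9 TPM in MSH2KO21B, against 27.9 and 26.7 TPM in MECPK. Its log2 difference of 0.33 (SE 0.07, limma adjusted p = 0.0114) was little more than the median of all genes, 0.19. The number of higher members of this list was 4 after quantile normalization, after median-ratio scaling and without incomplete transcripts.

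Of 20 genes that relay the receptor signal, 4 were higher, 7 lower and 9 not called, so that 55.0% were called against 76.2% of all genes tested. Their log2 differences ran from -3.03 to 1.94 with a median of -0.10. The lines did not overlap in 17 of the 20, against 88.9% of all genes tested, so this count does not set the list apart. The docking protein genes Gab1 and Gab2 went in opposite directions. Gab1 was at 8.99 and 9.37 TPM in MSH2KO21B, against 1.75 and 1.55 TPM in MECPK (log2 difference 1.94), and Gab2 was at 0.0614 and 0.0391 TPM in MSH2KO21B, against 6.56 and 8.72 TPM in MECPK (log2 difference -3.03, or -5.68 with a pseudocount of 0.1). Gab2 passed the filter only through MECPK. Pik3cb, a catalytic subunit of PI3K, was lower (-0.73). The number of lower members of this list was 11 after median-ratio scaling, and the number of higher members was 7 without incomplete transcripts.

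Genes for receptor turnover and inhibition had 7 higher, 6 lower and 6 not called of 19 (median log2 difference 0.14). The share called was 68.4%, against 76.2% of all genes tested, so the count does not set this list apart. Eps8, a substrate of EGFR, was at 25.6 and 25.5 TPM in MSH2KO21B, against 121 and 140 TPM in MECPK (log2 difference -2.31). The endocytic adaptor gene Epn1 (-1.57) and the ubiquitin ligase gene Cblc (-1.44) were lower as well. Lrig3, a transmembrane relative of the ERBB inhibitor LRIG1, was at 2.92 and 2.64 TPM in MSH2KO21B and was at 0 in each MECPK library; it passed the filter only through MSH2KO21B. Its log2 difference was 1.92, or 4.84 with a pseudocount of 0.1. The number of higher members was 3 after quantile normalization, 4 without MSH2KO21B replicate 1 and 3 without MSH2KO21B replicate 2.

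Of 16 genes for growth factor receptor kinases of other families 12 were tested, with 8 higher and 3 lower, against 46.6% and 29.7% of all genes tested (median log2 difference 0.98). Of the 8, 4 (Fgfr2, Mst1r, Ret and Pdgfra) passed the filter only through MSH2KO21B, the line in which they were high, so neither the count nor the median is read as support. Fgfr2, an epithelial receptor for fibroblast growth factors, was at 43.4 and 43.5 TPM in MSH2KO21B, against 0.0611 and 0.169 TPM in MECPK (log2 difference 5.32). Fgfr3 (3.11), Mst1r (3.005), which encodes the receptor RON, and Ret (2.68) were higher too. Fgfr3, which passed the filter in both lines, was called by limma (adjusted p = 3e-05). With a pseudocount of 0.1 the log2 differences of Mst1r and Ret were 5.98 and 5.69. The 3 lower genes, named after their values were seen, were Axl (-2.14), Epha2 (-1.17) and Insr (-0.72).

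**Figure D5:**
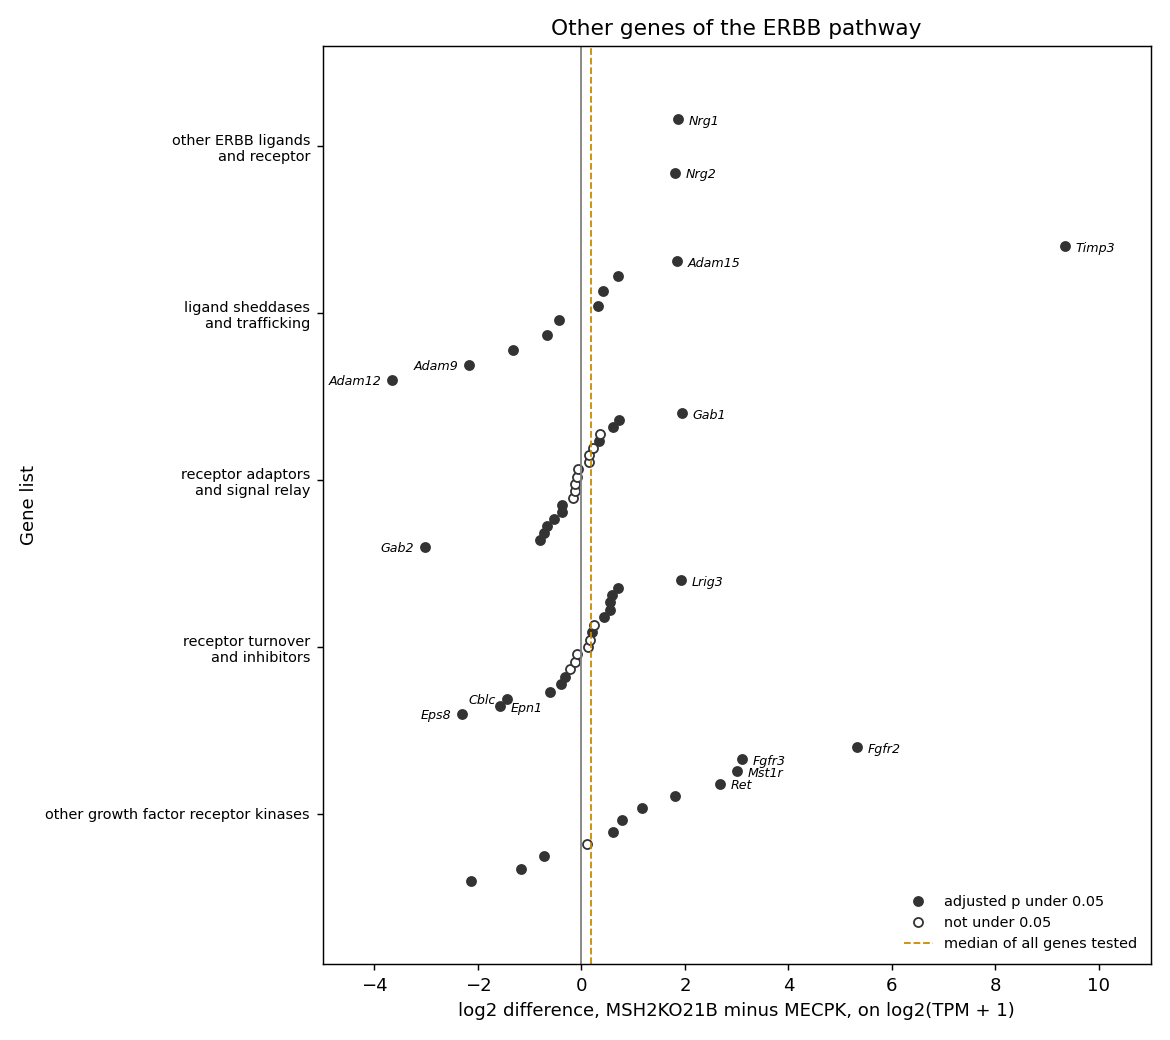
Log2 difference, MSH2KO21B minus MECPK, of each tested gene in 5 lists of other ERBB pathway and receptor kinase genes. Filled points had an adjusted p under 0.05 and open points did not; the dashed line is the median of all genes tested (0.19), and the labelled genes reach from -3.66 (Adam12) to 9.34 (Timp3).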

How the data were processed

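RNA of the 4 libraries was purified on columns and prepared by standard Illumina steps, per the labels' protocols. The deposited table holds TPM values per transcript; kallisto 0.43.1 and build GRCm38 are named in the submitters' processing notes, while the transcript set, the options and the strand setting are not given. Of 61440 transcripts, 60503 matched GENCODE M21 by identifier without version, and the 937 others were left out. TPM were summed per gene. The line was the only term of a model fitted with limma 3.58.1 in R 4.3.3, trend option on, to log2(TPM + 1) of all genes that reached 1 TPM in 2 or more libraries; this scale understates changes of low genes. It used Benjamini-Hochberg adjustment over all genes. The test was checked on simulated data in which only a small part of the genes changed, whereas 76.2% of genes tested were called here. That check therefore cannot give the error rate in data like these. Settings varied were the trend, scaling, filter, pseudocount, transcripts summed, a block for the replicate number and each library left out.

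Genes and lists were chosen with earlier results of these data known. Named were all 10 genes, the other ERBB ligands and Erbb4, and up to 4 called members of each other list with the largest differences. Of the lists, 1 gene (Hgs) was left out because its symbol carries 2 gene identifiers. A gene taken by this rule is not reported here.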

Additional observations from a re-analysis of the deposited data

How the results depend on the processing

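All 10 genes kept the direction of their difference in each of the 13 alternatives, 12 of them for Erbb3 and Btc, which could not be tested with a filter of 10 TPM. Of the 10, 8 also stayed past the threshold in each alternative that tested them, and Erbb2 and Tgfa lost the call in those given above. In the 4 alternatives that leave out a library, 1 line has a single library, which is assumed to vary like the pair of the other line. The difference ranged from 6.97 to 9.07 for Epgn, from 1.18 to 1.45 for Egfr, from -2.47 to -2.20 for Areg and from -3.76 to -2.56 for Btc. With the replicate block all 10 genes were called, and 9112 genes in all, against 9088 without it. The labels mark the libraries of both lines A and B, here called replicates 1 and 2. They do not say that a letter marks a shared culture or day. The deviations of same-numbered libraries correlated at 0.016 across genes. The share of all called genes that was higher in MSH2KO21B was 61.1% on the deposited scale, 48.1% once values were quantile normalized and 48.9% with median-ratio scaling. With 2 libraries a line, 2 residual degrees of freedom were left, and without depth a gene listed at 0 could not be separated from one below reach.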
